A study of Mus musculus with 6 samples.

Results

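Serotonin signalling in the mouse ventral midbrain was followed through 10 genes: the enzyme Tph2, the transporter Slc6a4, the transcription factors Fev and Gata3, and the receptors Htr1a, Htr1b, Htr2a, Htr2c, Htr4 and Htr7. They were found by symbol in the platform annotation. Where a gene had several probe sets, the one used was chosen by its mean level over the 6 arrays, the highest being kept, so mean levels are given as a description. By this rule 9 of the 10 genes were measured, among 22180 genes with a probe set of their own, and Fev was not analysed here. The arrays held ventral midbrain RNA of male mice at 2 months of age, 3 labelled Bach1 KO and 3 labelled wild type (genotype WT), with no treatment in either group. Neither strain nor the makeup of the knockout allele is stated in the labels, which also do not say whether each array was a separate animal, and a p-value here covers only the spread between arrays, which may be technical.

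Serotonin is made from tryptophan in neurons of the raphe nuclei, which lie along the midline of the midbrain, pons and medulla. TPH2 carries out the first and rate-limiting step, aromatic amino acid decarboxylase completes the synthesis, the vesicular monoamine transporter packages the product, and SLC6A4 takes released serotonin back up. FEV (also called PET1) and GATA3 belong to the transcription factors that specify these neurons, and Gata3 is also expressed by GABA neurons of the midbrain. The ventral midbrain receives a dense serotonin input, and its dopamine and GABA neurons carry several of the receptors. Transcripts of receptors can thus be made by cells of the region, while Tph2 and Slc6a4 are transcribed in raphe cell bodies. Which cells gave the signal on these arrays was not tested.

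The sequence next to a gene's start site is shown for the genes of serotonin synthesis and reuptake, the members whose groups did not overlap, and for Htr2c, the member with a match to an AP-1-like core. Each window runs from 250 bases before to 50 after the annotated start (RefSeq, GRCm38.p6), is written 5′ to 3′ on the gene's strand, and has in capitals the matches to 4 short cores searched on both strands. One is TGACNNNGC, where N is any base, the core of the antioxidant response element that NRF2 and BACH1 bind with small Maf proteins. The others are TGANTCA, a loose AP-1-like core that allows any middle base, GATAA for GATA factors, and CGGAA for ETS factors such as FEV. Tph2 lies at chr10:115184973-115185272, minus strand, Slc6a4 at chr11:76998347-76998646, plus strand, and Htr2c at chrX:146962263-146962562, plus strand.
Tph2: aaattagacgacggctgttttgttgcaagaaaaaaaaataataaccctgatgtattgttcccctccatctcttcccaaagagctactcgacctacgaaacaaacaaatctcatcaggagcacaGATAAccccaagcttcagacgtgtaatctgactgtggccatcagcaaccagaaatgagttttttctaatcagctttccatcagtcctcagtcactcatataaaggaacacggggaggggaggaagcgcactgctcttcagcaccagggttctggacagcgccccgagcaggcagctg
Slc6a4: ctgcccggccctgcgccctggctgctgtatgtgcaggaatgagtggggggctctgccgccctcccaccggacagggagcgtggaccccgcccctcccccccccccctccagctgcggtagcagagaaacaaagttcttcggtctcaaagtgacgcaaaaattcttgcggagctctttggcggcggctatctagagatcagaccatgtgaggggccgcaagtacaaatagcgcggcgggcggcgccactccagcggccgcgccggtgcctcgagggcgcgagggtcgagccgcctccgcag
Htr2c: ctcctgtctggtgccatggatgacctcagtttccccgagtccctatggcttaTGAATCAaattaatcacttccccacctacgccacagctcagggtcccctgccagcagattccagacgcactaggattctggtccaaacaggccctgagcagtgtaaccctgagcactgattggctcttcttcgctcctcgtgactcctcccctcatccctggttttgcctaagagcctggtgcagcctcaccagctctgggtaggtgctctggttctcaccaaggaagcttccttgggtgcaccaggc
The antioxidant element core was in 0 of the 9 member windows read, and it was in 12.4% of 32851 windows of this length. The windows read include that of Fev, and that of Htr4 was not analysed here. The AP-1-like core was in 1 of 9, at Htr2c, against 7.81% of all windows. A GATA core was in 2 of 9, at Tph2 and Fev, against 25.4%, and an ETS core in 3 of 9, at Fev, Gata3 and Htr1b, against 29.9%. No 2 matches overlapped. A match is a run of letters and not a measured site, and a missing match says only that these letters are not in this window.

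The labels and the makeup of the arrays were checked before the members. Bach1 itself read 7.59, 7.68 and 7.70 on the knockout-labelled and 7.46, 7.59 and 7.57 on the wild-type arrays, so its signal was not lower where the label says knockout (log2 difference 0.11, limma, adjusted p = 0.74). Hmox1, a heme oxygenase gene that BACH1 represses, was higher on the knockout-labelled arrays by 1.95 on the log2 scale (limma, adjusted p = 0.0181). With the replicate number as a block its adjusted p was 0.544, and with each array left out in turn the log2 difference ran from 1.88 to 2.03 and the adjusted p from 0.134 to 0.233, so the call was lost in each of these fits (limma). On all 6 arrays without a block it was kept after renewed quantile (adjusted p = 0.0150) and cyclic loess normalization (0.0124, limma). It was also kept with array weights (0.0163), a trended robust prior (0.0020), a filter on dim probe sets (0.0039) and annotated probe sets alone (0.0073, limma). The dopamine transporter gene Slc6a3 and the tyrosine hydroxylase gene Th, which define dopamine neurons of the ventral midbrain, had mean levels of 11.96 and 11.23. The arrays had medians of 5.58 to 5.69, and the median difference over all probe sets was 0.00050. Knockout-labelled replicate 3 stood apart in hypothalamic genes. Its melanin-concentrating hormone gene Pmch read 7.65, while the other 5 arrays ran from 10.40 to 11.39. Knockout-labelled replicate 2 had the highest mean level over 7 cortex and hippocampus markers, with 3 of 7 highest there, and wild-type replicate 1 had the highest mean level over the thalamus markers, so members are also given without single arrays where that matters.

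Tph2 and Slc6a4, which define serotonin neurons, were dim in this tissue, whereas Gata3 and the 6 receptors were clearly measured. The dim range was taken from 1400 probe sets of olfactory and vomeronasal receptor genes, chemoreceptors of the nose that serve here as genes with little expected transcript in midbrain. Their mean levels had a median of 3.17 and a 95th percentile of 5.25. Tph2 had a mean of 4.91 over the 6 arrays and Slc6a4 one of 4.89, above 91.2% and 90.9% of these chemoreceptor probe sets. Tph2 exceeded the 95th percentile of its own array on 0 of 6 arrays and Slc6a4 on 1 of 6, while each of the other 7 members exceeded it on all 6. Probe sets differ in affinity, so these levels place a gene against the dim range but do not rank the genes by transcript number.

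**Figure D1:**
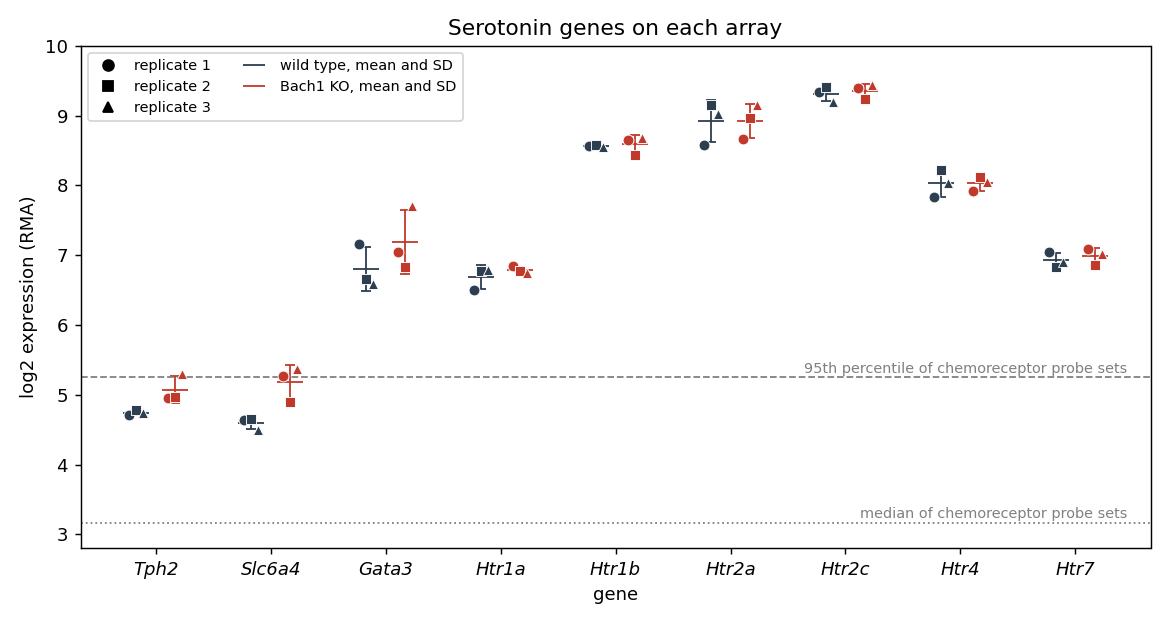
Log2 expression (RMA) of the 9 measured serotonin genes on each array, wild type in dark blue and Bach1 KO in red, with replicates as circle, square and triangle and bars for the mean and SD of 3 arrays. Tph2 and Slc6a4 lie near or below 5.25, the 95th percentile of 1400 chemoreceptor probe sets (dashed; their median of 3.17 is dotted), and the other 7 genes lie above it on every array.

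Among the genes of serotonin neurons, Tph2 and Slc6a4 had higher values on the knockout-labelled arrays without overlap, and neither passed the test. Limma called 0 of the 9 members at an adjusted p of 0.05, where 0.00726% of all 41345 probe sets were called, and 2 of 9 reached an unadjusted p under 0.05, against 8.27% of all probe sets. Those 2 were Tph2 and Slc6a4. Their difference was known from earlier results of these arrays when the genes were chosen, so it is given as a description.

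Tph2 read 4.96, 4.96 and 5.30 on knockout-labelled replicates 1, 2 and 3 and 4.72, 4.78 and 4.74 on the wild-type arrays. Replicate 3 was the highest, and the knockout-labelled values of replicates 1 and 2 lay close above the wild-type ones. The means were 5.07 ± 0.20 and 4.74 ± 0.030 (SD, n = 3), so the log2 difference was 0.33 (95% interval 0.050 to 0.61, limma, adjusted p = 0.566). Without knockout-labelled replicate 3 the log2 fold change was 0.22.

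Slc6a4, the serotonin transporter, read 5.27, 4.90 and 5.36 on the knockout-labelled arrays and 4.64, 4.66 and 4.50 on the wild-type arrays. Replicates 1 and 3 were high and replicate 2 intermediate, again without overlap between the groups. The means were 5.18 ± 0.25 and 4.60 ± 0.087 (SD, n = 3), so the log2 difference was 0.58 (95% interval 0.24 to 0.92, limma, adjusted p = 0.512). It was 0.72 without knockout-labelled replicate 2 and 0.49 without replicate 3.

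Gata3 read 7.05, 6.83 and 7.71 on the knockout-labelled and 7.16, 6.66 and 6.59 on the wild-type arrays. The groups overlapped, with replicate 3 standing above every other array and wild-type replicate 1 second. The log2 difference of 0.39 (95% interval -0.26 to 1.04, limma, adjusted p = 0.725) was 0.13 without knockout-labelled replicate 3. A further Gata3 probe set, with a lower mean of 6.40, differed by 0.12 on the log2 scale (95% interval -0.11 to 0.35, limma, adjusted p = 0.758).

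Probe sets about as dim as Tph2 and Slc6a4 read slightly higher on the knockout-labelled arrays. The 95th percentile of chemoreceptor probe sets was 5.40, 5.40 and 5.36 on knockout-labelled and 5.24, 5.21 and 5.24 on wild-type arrays. Their median differed less, at 3.21, 3.17 and 3.18 against 3.16 on each wild-type array. Each member was therefore set against the 1000 probe sets nearest to it in mean level. For Tph2 the median difference of these neighbours was 0.074 (log2), with a 5th to 95th percentile range of -0.39 to 0.50, which holds the 0.33 of Tph2. As large a log2 fold change was seen for 119 of the 1000. The median around Slc6a4 was 0.077 with a range of -0.39 to 0.51, and 31 of the 1000 reached its 0.58. Around Gata3 the median was -0.046 with a range of -0.29 to 0.26, and 22 of 1000 reached 0.39. Relative to these medians the differences were 0.26 for Tph2, 0.50 for Slc6a4 and 0.44 for Gata3. Without knockout-labelled replicate 3 they were 0.12 for Tph2, 0.39 for Slc6a4 and 0.20 for Gata3. Gata3 also varied widely within groups, with an SD of 0.39 against a typical 0.13 for its neighbours, where 38 of 1000 varied as much. In the Tph2 and Slc6a4 windows 10.3% and 11.2% of probe sets were higher on the knockout-labelled arrays without overlap, against 7.4% of all probe sets.

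**Figure D2:**
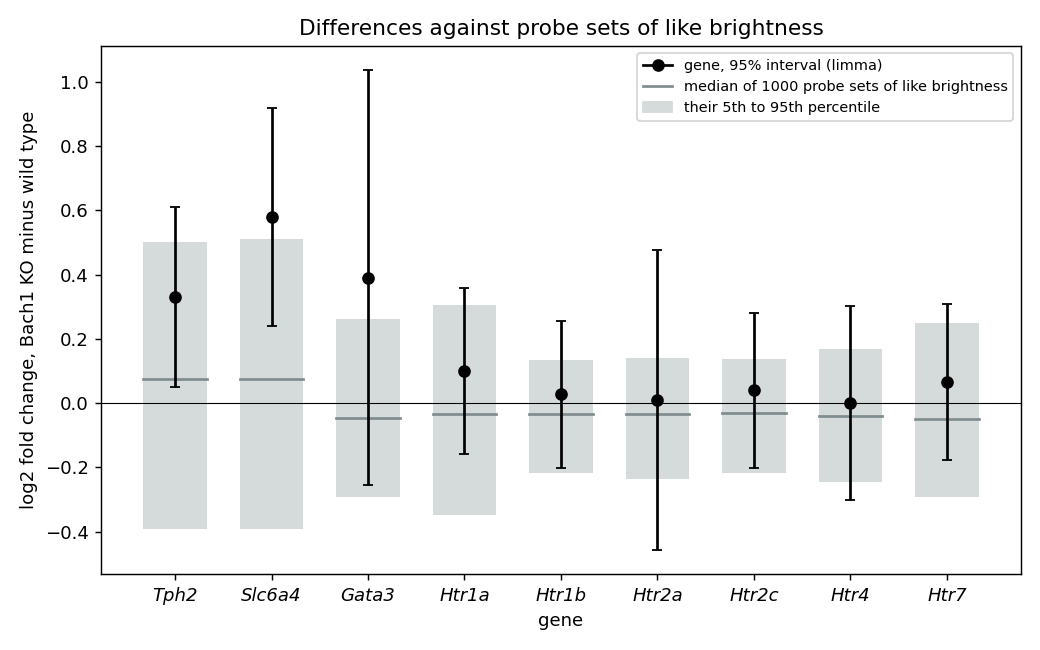
Log2 fold change of each serotonin gene, knockout-labelled minus wild type, with its 95% interval (points, limma), beside the median (grey line) and the 5th to 95th percentile (grey box) of the 1000 probe sets nearest in mean level. Slc6a4 at 0.58 and Gata3 at 0.39 lie above their boxes, Tph2 at 0.33 and all 6 receptors lie inside theirs. The interval of Gata3 reaches from -0.26 to 1.04.

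The receptors had similar mean levels in the 2 groups. Among the 6 member receptors the knockout-labelled mean was higher for 5 and lower for 1, with log2 fold changes from -0.00020 to 0.10, a median of 0.033 and adjusted p-values of 0.828 or more (limma). Over all genes 46.9% had a higher mean and the median was -0.0098. The 1000 probe sets nearest in mean level to each receptor leaned slightly lower, with medians from -0.048 to -0.030. Relative to these medians the 6 receptors were higher by 0.038 for Htr4 to 0.13 for Htr1a. Between 198 and 346 of each 1000 neighbours had as large a log2 fold change. All 6 receptors had overlapping groups. An adjusted p of this size does not show equality, and the intervals reach from -0.46 to 0.48 over the 6 genes.

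Htr1a and Htr1b encode receptors that couple to inhibitory G proteins and act as autoreceptors, on raphe cell bodies and on serotonin terminals respectively, and as heteroreceptors on other neurons. Htr1a read 6.84, 6.77 and 6.75 on the knockout-labelled and 6.50, 6.78 and 6.79 on the wild-type arrays. Wild-type replicate 1 alone was low, and the other 5 arrays lay within a narrow band. Its log2 fold change was 0.10 (95% interval -0.16 to 0.36), and it was 0.0040 without wild-type replicate 1.

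Htr1b read 8.65, 8.43 and 8.68 on the knockout-labelled and 8.56, 8.58 and 8.55 on the wild-type arrays. The wild-type values were close together (SD 0.016) and lay inside the knockout-labelled range. The log2 fold change was 0.027 (95% interval -0.20 to 0.26), the equivalent of 0.87-fold to 1.19-fold.

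Htr2a and Htr2c encode receptors that couple to Gq and raise intracellular calcium. Htr2a, abundant in cortex, read 8.67, 8.96 and 9.15 on the knockout-labelled and 8.58, 9.15 and 9.03 on the wild-type arrays. Replicate 1 was the lowest array in both groups. The within-group SD of 0.27 was larger than the 0.093 typical of probe sets of like brightness, where 51 of 1000 varied as much, and the log2 difference was 0.0092 (95% interval -0.46 to 0.48).

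Htr2c, abundant in choroid plexus and expressed by midbrain GABA neurons, read 9.39, 9.24 and 9.44 on the knockout-labelled and 9.33, 9.42 and 9.20 on the wild-type arrays. The groups overlapped throughout, with a log2 fold change of 0.040 (95% interval -0.20 to 0.28). Transthyretin gene Ttr, a choroid plexus marker, read 9.53, 10.89 and 9.59 on the knockout-labelled and 8.69, 9.98 and 8.59 on the wild-type arrays. Its log2 fold change was 0.91 (95% interval -0.33 to 2.16, limma, adjusted p = 0.677). Of 8 choroid plexus markers, Ttr among them, 5 had a higher and 3 a lower mean, with a median of 0.023. The part of this tissue in the Htr2c values was not tested.

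Htr4 and Htr7 encode receptors that couple to Gs and raise cyclic AMP. Htr4 read 7.92, 8.12 and 8.05 on the knockout-labelled and 7.83, 8.23 and 8.03 on the wild-type arrays, with equal means and a log2 fold change of -0.00020 (95% interval -0.30 to 0.30). Htr7 read 7.08, 6.87 and 7.02 on the knockout-labelled and 7.04, 6.84 and 6.90 on the wild-type arrays, with a log2 fold change of 0.065 (95% interval -0.18 to 0.31). That of Htr7 was 0.019 without knockout-labelled replicate 1 and 0.13 without replicate 2. In both groups replicate 1 had the lowest Htr4 and the highest Htr7.

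Of the 9 members 8 had a higher mean on the knockout-labelled arrays, where 50.1% of all probe sets did. Without knockout-labelled replicate 3 the count was 5 of 9, against 49.0%. Of the 1000 probe sets of like brightness, 635 had a higher mean around Tph2 and 639 around Slc6a4. The number was 356 around Gata3 and ran from 335 to 415 around the 6 receptors. Htr1b, Htr2a, Htr2c and Htr4 had log2 fold changes from -0.00020 to 0.040 and changed sign in some alternatives, so 8 of 9 is not read as a shared rise. The groups did not overlap for 2 of 9 in the higher direction, against 7.4% of all probe sets, and for 0 of 9 in the lower direction, against 6.86%. Without replicate 3 the first count was again 2 of 9, against 14.2% with the smaller group. The largest reading of the 6 arrays fell on knockout-labelled replicate 3 for 6 of 9 members, Tph2, Slc6a4, Gata3, Htr1b, Htr2a and Htr2c. That array held the largest reading for 17.6% of all probe sets.

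The other genes of the pathway were read from 5 lists. Limma called 0 of their 40 measured genes in either direction, where 0.00726% of all probe sets were called. An unadjusted p under 0.05 was reached by 0 of the 40, against 8.27% of all probe sets. Of 8 genes of synthesis and cofactor supply 3 had a higher and 5 a lower mean, with a median log2 fold change of -0.021. Ddc, the decarboxylase that serotonin and dopamine neurons share, was at 8.46, 8.22 and 8.70 against 8.16, 8.25 and 8.18, a log2 fold change of 0.27 (limma, adjusted p = 0.644). Tph1, the tryptophan hydroxylase of the pineal gland and gut, had a level of 4.70, within the dim range, and a log2 fold change of -0.16 (limma, adjusted p = 0.722).

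Packaging, uptake and breakdown genes were higher in 4 and lower in 3 of 7 measured, with a median of 0.030. Slc17a8, a vesicular glutamate transporter found in many raphe neurons, differed by 0.21 on the log2 scale (95% interval -0.13 to 0.56), and Maob, a monoamine oxidase, by -0.16 (95% interval -0.43 to 0.11). Slc22a3 of this list was not analysed here. Other transcription factors of serotonin neurons were higher in 6 and lower in 1 of 7 measured, with a median of 0.15. En1, a midbrain and hindbrain homeobox gene also active in dopamine neurons, was at 0.26 (95% interval -0.068 to 0.60). Lmx1b, needed for serotonin neuron development and shared with dopamine neurons, read 7.75, 7.66 and 7.52 against 7.49, 7.47 and 7.52, with groups that just failed to overlap and a log2 fold change of 0.15 (limma, adjusted p = 0.694).

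The other 8 receptors had 5 higher and 3 lower means with a median of 0.049. Htr3b, a subunit of the serotonin-gated ion channel, was dim and read 5.15, 5.17 and 5.18 against 5.05, 4.85 and 5.03, without overlap, a log2 fold change of 0.19 (limma, adjusted p = 0.622). Htr6, which couples to Gs, differed by -0.17 (95% interval -0.49 to 0.15). Receptor partners and regulators were higher in 2 and lower in 8 of 10, with a median of -0.040. Hes5, a Notch target reported to repress Htr1a, was at -0.24 (95% interval -0.62 to 0.14), and Deaf1, a transcription factor that acts on Htr1a, at -0.083 (95% interval -0.30 to 0.13).

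**Figure D3:**
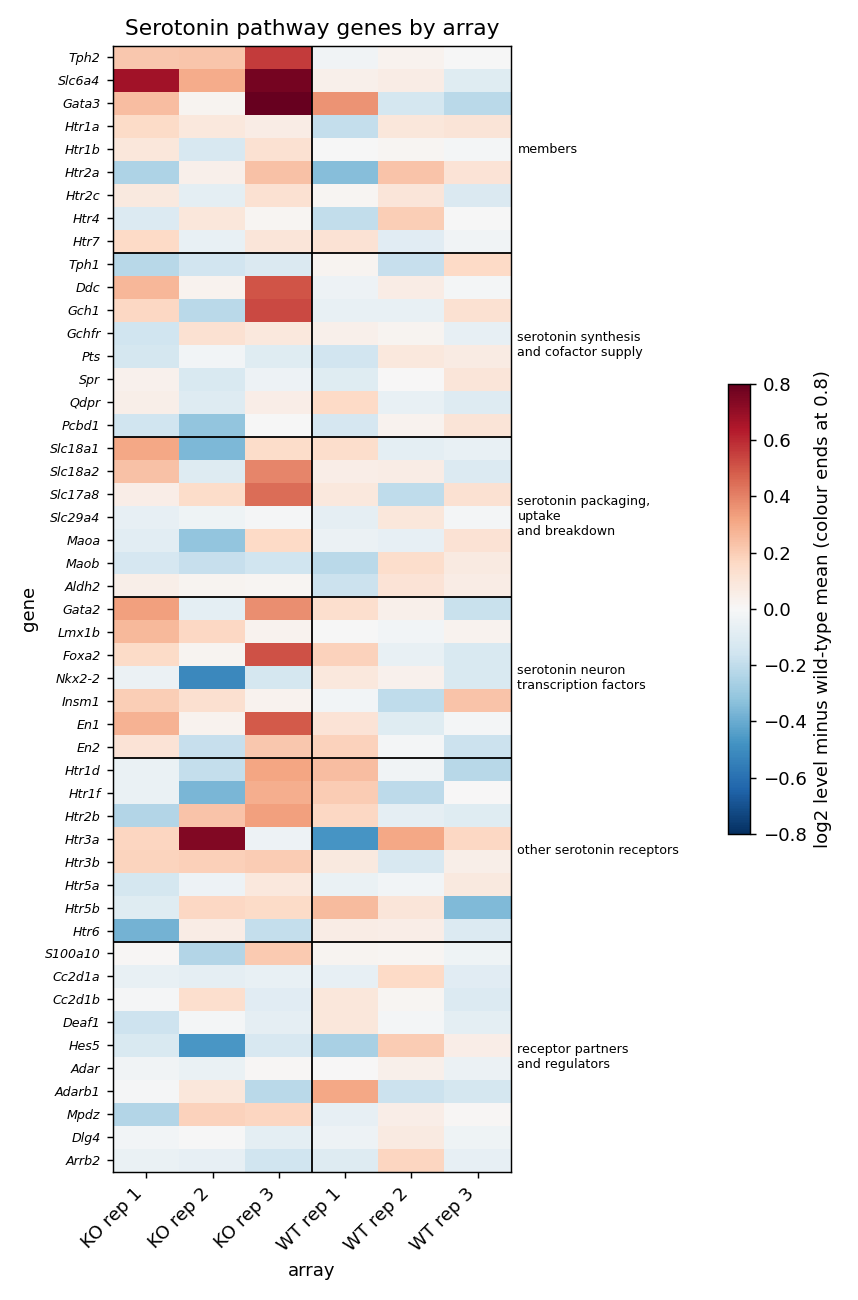
Log2 level minus the wild-type mean for 9 members and 40 further pathway genes (rows) on each array (columns), with red above and blue below the wild-type mean and colour ending at 0.8. The column of knockout-labelled replicate 3 is red for Tph2, Slc6a4, Gata3, Ddc, Slc17a8, Foxa2 and En1. It is also red for Gch1, Slc18a2 and Gata2, but near white for Lmx1b and light blue for Nkx2-2, both transcription factors of serotonin neurons. Of the 8 other receptors 5 were also highest on that array. The receptors and their partners show no block of colour by group.

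Markers of neighbouring regions moved between the same arrays, and their part in the members' differences was not tested. In bulk tissue, fewer cells of a type and less RNA per cell cannot be told apart. All 7 measured hypothalamus markers had lower means on the knockout-labelled arrays, and 5 of 7 were lowest on knockout-labelled replicate 3, which held the lowest value for 14.8% of all probe sets. Their mean log2 level was 6.59 to 7.85 on knockout-labelled and 7.60 to 9.07 on wild-type arrays. Dopamine neuron markers were highest on that replicate for 7 of 8 genes, with a mean level from 9.63 to 9.97 in that group and from 9.59 to 9.81 in wild type. The same array therefore held the highest readings of Tph2, Slc6a4, Gata3 and most dopamine neuron markers and the lowest of most hypothalamus markers.

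Hindbrain and noradrenergic markers, genes of the locus coeruleus and of tissue next to the raphe, were higher on the knockout-labelled arrays for 6 of 8 measured genes, with mean levels of 5.28 to 5.30 against 5.04 to 5.27. Only 2 of the 8 lay above the 95th percentile of the chemoreceptor probe sets, and Dbh, which defines noradrenaline neurons, had a level of 5.11, below it. Habenula and interpeduncular markers were highest on knockout-labelled replicate 3 for 3 of 6 genes. Replicates 1 of both groups held the 2 lowest values of Htr2a and of Htr4 and the 2 highest of Htr7, where knockout-labelled replicate 3 lay close below. Cortex and hippocampus scores, the mean over markers of the level minus the wild-type mean, were -0.19 on knockout-labelled and -0.14 on wild-type replicate 1. These were the lowest of the 6, and the thalamus scores of both arrays, 0.12 and 0.37, were the highest. Knockout-labelled replicate 3 had a cortex and hippocampus score of -0.13, close to these, and the highest Htr2a. A link between scores and receptors was not tested. Mast cell markers, from a cell type that also stores serotonin, had 1 of 5 genes above the dim range.

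**Figure D4:**
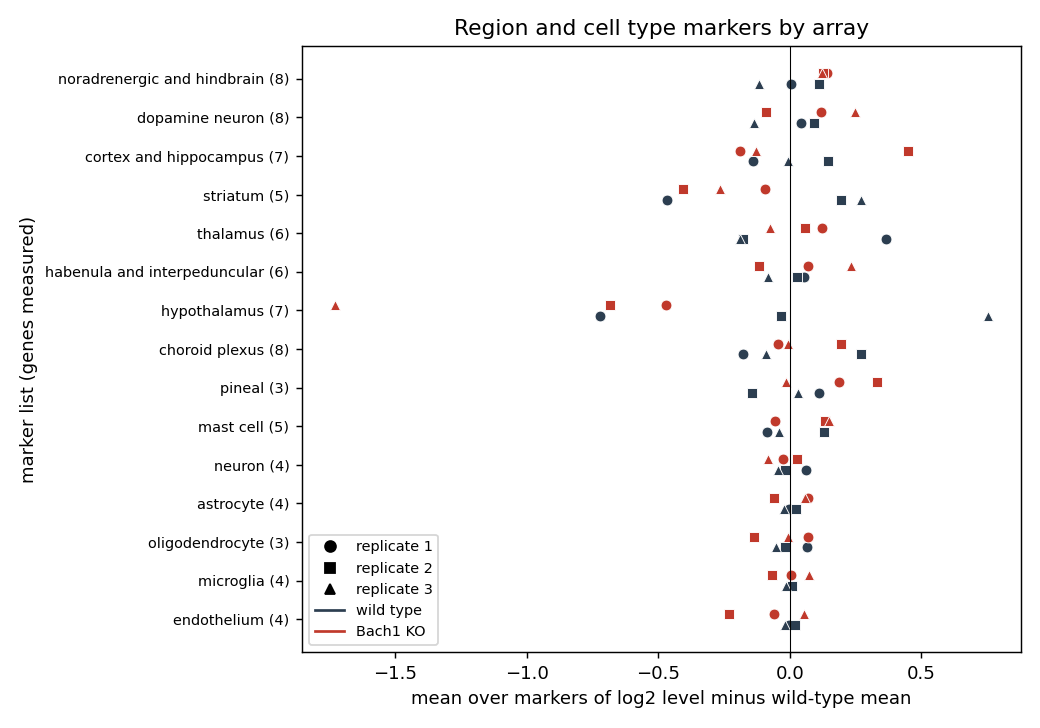
Score of each marker list on each array, as the average difference (log2) of its genes from the wild-type mean, with Bach1 KO in red, wild type in dark blue and replicates as circle, square and triangle. Hypothalamus scores run from -1.73 on knockout-labelled replicate 3 to 0.75 on wild-type replicate 3, while neuron, astrocyte, oligodendrocyte and microglia scores stay between -0.13 and 0.073. Endothelium scores run from -0.23 on knockout-labelled replicate 2 to 0.053 on knockout-labelled replicate 3.

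The genes whose 6 values were most like those of Tph2 and Slc6a4 were sought among 15790 genes brighter than 40% of probe sets, by the root mean square distance between profiles centred on each gene's mean. Nearest to Tph2 was Chrnb4, a nicotinic acetylcholine receptor subunit, at a distance of 0.039, with 6.45, 6.53 and 6.88 on the knockout-labelled and 6.27, 6.39 and 6.32 on the wild-type arrays. Nudt16l2 and Dusp9 followed at 0.054 and 0.057. Nearest to Slc6a4 were Sec31b at 0.076, Psg29 at 0.10 and Mir344d-2 at 0.11. With 6 arrays and this many candidates, close profiles are a description of these arrays.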

How the data were processed

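Biotin-labelled cRNA was hybridised to Affymetrix arrays, per the labels' protocols. For 6 arrays the authors deposited 1 log2 value a probe set, made with RMA, per the submitters' processing notes, without a version. That the scale is log2 was read from the values, which run from 0.745 to 14.1. There were 0 further columns of sample values. RMA removes a change shared by most genes and compresses differences of dim probe sets.

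A platform annotation gave 1 gene for 23521 of 41345 probe sets, several for 1814 and none for 16010, and symbols were updated through Entrez identifiers for 23328 (RefSeq, GRCm38.p6). Probe sets with several genes were not used for names. All probe sets were tested with limma 3.58.1 in R 4.3.3 (lmFit and eBayes, 3 against 3 arrays, no covariates), with Benjamini-Hochberg adjustment over all of them, a threshold of 0.05 and 95% intervals. On simulated data with these means and SDs, 69% of log2 changes of 1 and 91% of changes of 2 were called among 100 each. The changes were placed only in probe sets above the 40th percentile of means. Tph2 and Slc6a4 lie below it, so these shares do not cover them. The number of arrays limits the precision. Files named no genome build, so gene positions are not printed, and promoter windows keep the coordinates of the RefSeq table.

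The members and lists were chosen with earlier results of these data known. Named genes are all members, up to 2 genes of each pathway list with the smallest p where none was called, the 3 nearest profiles of Tph2 and of Slc6a4, the label checks Bach1 and Hmox1, and the first marker of a list. Pmch, Gch1, Asmt, Slc6a3, Nkx2-2 and Crx were picked with their values in view, as were genes named for the array on which they were highest. Same-numbered arrays deviated from their group means with correlations of 0.086, -0.033 and 0.039 over probe sets, so the numbers were not taken as pairs. Alternatives were the replicate block, each array left out, renewed quantile or cyclic loess normalization, a filter on dim probe sets, a trended robust prior, array weights, annotated probe sets alone, the mean of a gene's probe sets, and 200 or 4000 neighbours in place of 1000. Counts without single arrays were added after seeing the data.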

Additional observations from a re-analysis of the deposited data

How the results depend on the processing

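Limma called 0 of the members under all 14 alternatives. Over all probe sets it called 3 in the reported fit, 0 with the replicate block, 0 to 0 with each array left out, and 1 among probe sets annotated to 1 gene. With the replicate block the adjusted p of Tph2 and Slc6a4 was 0.613 for both. The numbers are shared by title only, and 1 of 3 knockout-labelled arrays correlated best with the wild-type array of its own number. Of 124 values of single members under these alternatives 12 changed sign, all of them in Htr1b, Htr2a, Htr2c and Htr4. Htr2a was -0.046 with array weights, and Htr4 was 0.042 after quantile and 0.040 after cyclic loess normalization. With each array left out, Htr1b ran from -0.019 to 0.11, Htr2a from -0.16 to 0.14, Htr2c from -0.019 to 0.098 and Htr4 from -0.098 to 0.098. Tph2 stayed between 0.22 and 0.39 and Slc6a4 between 0.49 and 0.72 with each array left out. After renewed quantile or cyclic loess normalization Tph2 was 0.27 and 0.26, with unadjusted p-values of 0.0799 and 0.0976 (limma). Both genes were dimmer than the filter on dim probe sets allows and were not tested there. Levels near the dim range limit what can be read from Tph2 and Slc6a4, since RMA compresses differences there.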

Other observations

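Serotonin is also the precursor of melatonin, and Asmt, whose product completes melatonin synthesis, read 6.80, 6.79 and 6.74 on the knockout-labelled and 6.52, 6.33 and 6.38 on the wild-type arrays. The groups did not overlap, and the log2 fold change of 0.37 did not pass the test (95% interval 0.16 to 0.58, limma, adjusted p = 0.512). It was singled out after its values were seen. Aanat, the enzyme of the preceding step, differed by 0.12 on the log2 scale (95% interval -0.25 to 0.50), and the pineal transcription factor gene Crx was at 4.62, within the dim range.

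Htr3a, a subunit of the serotonin-gated ion channel carried by cortical interneurons, varied more between arrays than between groups. It read 6.42, 6.98 and 6.20 on the knockout-labelled and 5.77, 6.56 and 6.41 on the wild-type arrays, with a log2 fold change of 0.29 (95% interval -0.38 to 0.96, limma, adjusted p = 0.802). Its highest value was on knockout-labelled replicate 2, the array with a cortex and hippocampus score of 0.45, above all others. A link between these values was not tested.

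Gch1, which supplies the tetrahydrobiopterin cofactor that tryptophan and tyrosine hydroxylases share, read 5.66, 5.28 and 6.03 on the knockout-labelled and 5.44, 5.44 and 5.62 on the wild-type arrays. The groups overlapped, with the highest and the lowest of the 6 values both on knockout-labelled arrays.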
